A study of Mus musculus with 6 samples.

Results

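The genes described here are 31 genes of the endoplasmic reticulum (ER), the compartment in which secreted and membrane proteins are folded. They were chosen by symbol as ER chaperones and genes of the unfolded protein response (UPR), and all 31 were found and detected among the 32285 genes of the files. The set holds 14 chaperones and folding enzymes of the ER lumen, 7 genes of ER-associated degradation, 3 stress sensors with the transcription factor gene Xbp1, 5 genes of the ATF4 and CHOP arm, and Sec61b, a subunit of the protein-conducting channel.

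Each of the 6 libraries came from the pancreatic tumour of 1 mouse of a Cre-driven model whose genotype includes P53LSL.R172H/+ and Pdx1-Cre. Cre driven by the Pdx1 promoter switches on mutant p53 in the pancreatic epithelium, and all 6 mice, the controls included, share this genotype. The other cells of the tumour carry the unrecombined alleles and come from the same animal. Mice were gavaged once a day for 2 days, 3 with the Smoothened inhibitor IPI-926 at 40 mg/kg and 3 with its vehicle, a hydroxypropyl-beta-cyclodextrin solution, and tumours freed of healthy pancreas were taken 2 hours after the last dose. Ages of the mice were not given in the sources used here. The question set by the design is what blocking Smoothened, the signal transducer of the Hedgehog pathway, does in each cell type.

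Proteins that enter the ER are held by chaperones such as BiP (the product of Hspa5), GRP94 (Hsp90b1) and the lectins calreticulin and calnexin, and receive disulfide bonds from protein disulfide isomerases. When unfolded protein builds up, 3 sensors respond. IRE1 (Ern1) splices the Xbp1 transcript, ATF6 (Atf6) is cut to a transcription factor, and PERK (Eif2ak3) slows translation and favours that of ATF4, which drives Ddit3 (CHOP), Trib3, Chac1 and Asns. XBP1 and ATF6 raise chaperones and the degradation machinery, which extracts misfolded proteins to the cytosol. Plasma cells and acinar cells are textbook secretory cells that depend on XBP1. Counts of the 3' ends of transcripts show the level of the Xbp1 transcript and not its splicing.

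The libraries held 100810942 to 174929328 UMIs (unique molecular identifiers, counted transcripts) in 8114 to 17276 barcodes, and no pair shared more than 59 barcodes. After filters and doublet removal 49797 cells were clustered without the 31 genes, and 45004 took 1 of 12 cell classes from marker genes, none of which is among the 31. Cells differed in number between libraries, and IPI-926 replicate 3 gave 5605 of the 7480 fibroblasts. Only classes with at least 20 cells in a library were used there, so plasma cells rested on 3 libraries (171 cells of IPI-926 replicate 1, 52 and 30 of vehicle replicates 1 and 2) and acinar cells on 2 (20 and 172 cells of vehicle replicates 2 and 3). Neutrophils fell into different clusters: cluster 16 held 92.2% to 99.8% of them in 4 libraries, cluster 24, which had few UMIs per cell, held 97.3% in vehicle replicate 3, and cluster 3 held 82.7% in IPI-926 replicate 3, which had 197. The drug's pathway readout in fibroblasts, Gli1, stood at 11.05, 11.06 and 11.81 UMIs per 1000000 UMIs (CPM) in the vehicle mice and at 0.385, 1.47 and 0.157 after IPI-926. That is a log2 difference of -4.99 (SE 0.77), with an adjusted p of 0.919 in edgeR's quasi-likelihood test over all genes.

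Promoters of the set are shown first, because the sequence that binds ATF6 and XBP1 together with NF-Y recurs in them. The ER stress response element (ERSE), searched on both strands as CCAAT and CCACG with 9 bases of any kind between them, was found in 9 of the 27 members with a promoter in the RefSeq table of build GRCm38.p6 (33.3%), against 39 of all 32851 promoters (0.119%), each 250 bases before to 50 after a start site. A second element, ERSE-II (ATTGG and CCACG with 1 base between them), was found in 2 of the 27 (7.41%; Dnajb11 and Herpud1) and in 12 of all (0.0365%). The UPRE core TGACGTGG was in 0 of the 27 and in 222 of all (0.676%). The core of the C/EBP-ATF response element, TGATGNAA, was in 4 of the 27 (14.8%; Asns, Chac1, Herpud1 and Trib3) and in 1304 of all (3.97%). Manf, Derl1, Atf6 and Hyou1 had no entry. Members are counted as genes with a match in any of their promoters, and the background as single promoters, so the 2 shares differ in unit. Both the elements and the members were picked for the UPR, so the shares are no test of either. A match is a description of letters and not of binding in these cells. The runs below give, 5′ to 3′ on the strand of the gene, the matches of 9 ERSE promoters, of Herpud1 with ERSE-II and of Chac1 with the C/EBP-ATF core, in capitals, with 30 bases on each side where the promoter allows and ending before the RefSeq start site.
Hspa5: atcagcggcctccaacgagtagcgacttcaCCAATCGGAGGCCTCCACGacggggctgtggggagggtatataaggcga
Hsp90b1: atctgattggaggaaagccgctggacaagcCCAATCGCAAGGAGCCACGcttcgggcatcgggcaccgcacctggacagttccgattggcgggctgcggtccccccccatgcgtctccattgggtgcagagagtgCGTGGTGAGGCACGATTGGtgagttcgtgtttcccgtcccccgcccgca
Calr: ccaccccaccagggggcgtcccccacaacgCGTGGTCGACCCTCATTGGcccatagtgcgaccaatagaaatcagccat
Canx: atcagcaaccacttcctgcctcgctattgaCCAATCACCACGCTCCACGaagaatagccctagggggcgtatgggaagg
Pdia6: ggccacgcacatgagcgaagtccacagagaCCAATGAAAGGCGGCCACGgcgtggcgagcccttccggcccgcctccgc
Dnajc3: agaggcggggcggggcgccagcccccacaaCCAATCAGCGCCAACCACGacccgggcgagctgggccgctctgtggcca
Creld2: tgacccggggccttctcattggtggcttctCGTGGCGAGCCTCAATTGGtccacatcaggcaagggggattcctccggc
Herpud1: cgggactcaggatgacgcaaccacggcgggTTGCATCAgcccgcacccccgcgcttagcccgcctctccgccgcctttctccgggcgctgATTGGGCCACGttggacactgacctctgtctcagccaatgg
Syvn1: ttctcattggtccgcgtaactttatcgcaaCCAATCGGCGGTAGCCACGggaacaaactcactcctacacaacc
Derl3: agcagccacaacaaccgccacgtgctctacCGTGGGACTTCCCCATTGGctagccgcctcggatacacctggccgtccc
Chac1: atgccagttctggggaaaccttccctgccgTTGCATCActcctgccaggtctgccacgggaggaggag
Hsp90b1 carried the ERSE in both orientations, and the Herpud1 window held the C/EBP-ATF core upstream of ERSE-II. The windows lie at chr2:34771995-34772073 (plus strand, Hspa5), chr10:86705503-86705686 (minus strand, Hsp90b1), chr8:84847045-84847123 (minus strand, Calr), chr11:50325770-50325848 (minus strand, Canx), chr12:17266461-17266539 (plus strand, Pdia6), chr14:118937797-118937875 (plus strand, Dnajc3), chr15:88819490-88819568 (plus strand, Creld2), chr8:94386287-94386417 (plus strand, Herpud1), chr19:6046502-6046575 (plus strand, Syvn1), chr10:75893212-75893290 (plus strand, Derl3) and chr2:119351019-119351086 (plus strand, Chac1).

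The summed share of the 31 genes in all UMIs ordered the classes from plasma cells down to B cells. It was 1.34% ± 0.0478 (SD, n = 3) in plasma cells, with 1.31% and 1.39% in vehicle replicates 1 and 2 and 1.31% in IPI-926 replicate 1. Fibroblasts followed with 0.739% ± 0.0751 (n = 6) and mesothelial cells with 0.711% ± 0.0783 (n = 6), which overlapped. Macrophages and monocytes had 0.553% ± 0.0176, perivascular cells 0.531% ± 0.0933 and endothelial cells 0.493% ± 0.0526 (n = 6 each). Dendritic cells had 0.458% ± 0.116 (n = 5) and ductal cells 0.446% ± 0.0891 (n = 6). T and NK cells had 0.372% ± 0.0861, neutrophils 0.326% ± 0.0301 and B cells 0.310% ± 0.0437 (n = 6 each). From macrophages down, each neighbouring pair in this order overlapped, while the 3 plasma libraries lay above every library of the other classes. A share is relative to all other RNA of the cell, and immunoglobulin transcripts took 48.7% to 53.6% of plasma UMIs. Without immunoglobulin and acinar enzyme genes in the denominator the plasma share was 2.72% ± 0.146. Acinar cells had 0.253% and 0.421% in their 2 libraries, where enzyme transcripts took 10.6% to 40.9% of UMIs, and 0.428% and 0.471% without those genes.

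**Figure D1:**
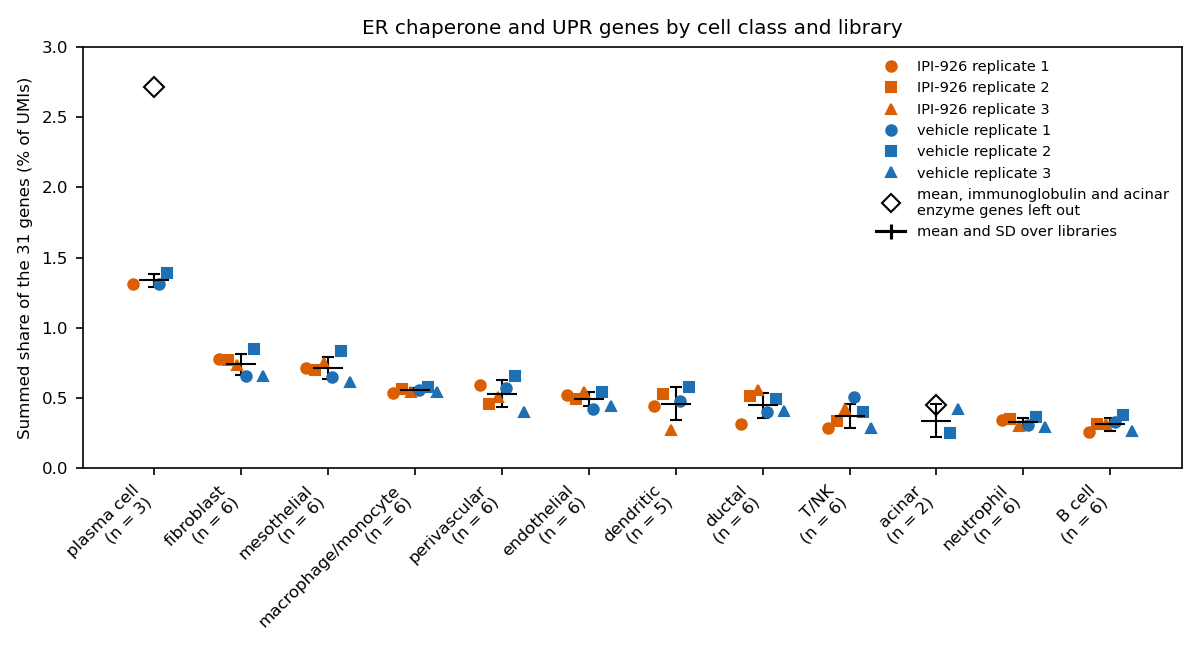
Share of all UMIs taken by the 31 genes (y axis, percent) in each cell class (x axis), 1 point per library in vehicle or IPI-926 colour, with the mean and SD over libraries; diamonds give the mean without immunoglobulin and acinar enzyme genes in the denominator for plasma and acinar cells. Plasma cells lie above every other class, and the vehicle and IPI-926 points overlap within the classes that have 6 libraries.

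The order differed between members (the plot of single members by class). Plasma cells had the highest mean CPM for 20 of the 31 members, fibroblasts for 3, neutrophils, endothelial and acinar cells for 2 each, and T and NK cells and mesothelial cells for 1 each. The plasma libraries overlapped the second class for Hspa5, Pdia6, Dnajb9, Dnajc3, Herpud1, Syvn1, Derl1, Atf6, Hyou1 and Sec61b. Dnajb9 averaged 128.8 in plasma cells and 128.1 in mesothelial cells. Each member led by another class also overlapped its second class, as Atf4 did (175.1 in fibroblasts, 171.9 in endothelial cells). Over the 12 class means the chaperones correlated with each other with a median r of 0.71 (range -0.18 to 0.95), and with Sec61b with 0.76. With the sensors and Xbp1 their median r was 0.22, and with the ATF4 and CHOP arm -0.15. These are descriptions over 12 classes that share libraries, with no test. Outside the set, 9 of the 10 genes whose level followed the summed share most closely among 6086 genes over the 12 class means were Pon3 (r = 0.937), Erp44 (0.932), Fkbp2 (0.915), Ssr4 (0.911), Clptm1l (0.91), Txndc5 (0.895), Magt1 (0.892), Cope (0.889) and Srprb (0.889). Erp44, Fkbp2 and Txndc5 are ER folding genes, and Ssr4 and Srprb act in entry into the ER.

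**Figure D2:**
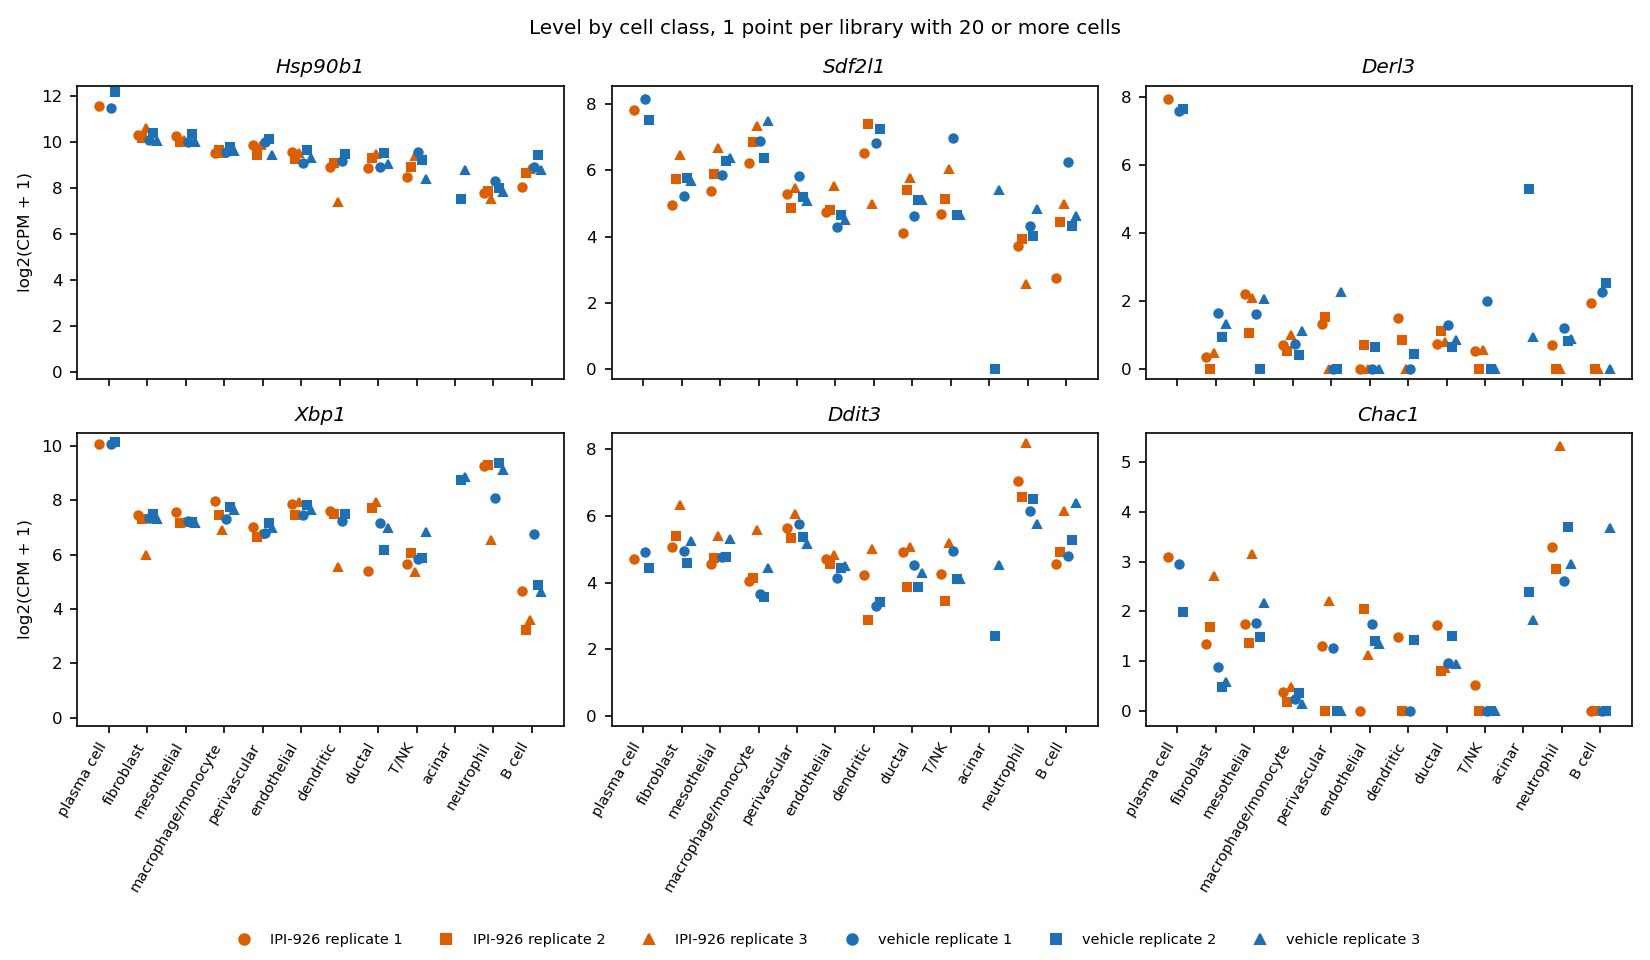
Level of Hsp90b1, Sdf2l1, Derl3, Xbp1, Ddit3 and Chac1 (y axis, log2 of CPM + 1) in each class (x axis), 1 point per library. Hsp90b1 and Derl3 stand highest in plasma cells, and Ddit3 and Chac1 have their highest means in neutrophils.

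Plasma cells, compared with all other named cells of the same library, were called higher for 28 of the 31 members and lower for none, at an adjusted p below 0.05 in edgeR's quasi-likelihood test with the library as a block. Over all 15564 genes tested 10.6% were called higher and 21.1% lower. The members' median log2 fold was 2.57, against -0.41 for all genes. Values in the class contrasts are edgeR's CPM after TMM scaling (scaled CPM), given for vehicle replicates before IPI-926 replicates. The other cells of a library were added up as UMIs, so they are no even average of classes, and those with most UMIs weigh most. Ductal cells of cluster 9 held 47228234 UMIs in IPI-926 replicate 1, and fibroblasts of cluster 34 held 84500085 in IPI-926 replicate 3. Trib3, Asns and Canx were not called. Trib3 had UMIs in 1 of the 3 plasma libraries, Asns had a log2 fold of 0.14 (SE 0.36, adjusted p 0.808 in edgeR) and Canx one of 0.25 (SE 0.24, adjusted p 0.461).

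Among the degradation genes of plasma cells the largest fold was that of Derl3, a membrane protein of the extraction channel. It stood at 304.1, 288.8 and 385.6 scaled CPM in plasma cells and at 0.956, 0.403 and 0.495 in the other cells (log2 fold 9.13, SE 0.33, adjusted p 5.475e-161). All 3 plasma libraries were high and all 3 sums of other cells were near 0. Edem1, which picks out misfolded glycoproteins, stood at 550.9, 751.8 and 638.7 scaled CPM against 23.5, 39.0 and 24.3 (4.51, SE 0.26). Sel1l, the scaffold of the ubiquitin ligase complex, stood at 1216.3, 539.4 and 452.9 against 35.8, 39.3 and 25.6 (4.34, SE 0.26), so vehicle replicate 1 lay well above the other plasma libraries. Herpud1, which gathers that complex, stood at 658.2, 416.3 and 868.0 against 51.0, 41.0 and 29.0 (3.99, SE 0.26). All 7 degradation genes were called higher, with a median of 3.99.

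Of the 14 chaperones and folding enzymes 13 were called higher in plasma cells, with a median of 2.64. Creld2, an ER protein with disulfide isomerase activity, stood at 894.3, 501.2 and 630.3 scaled CPM against 21.3, 26.8 and 18.7 (log2 fold 4.91, SE 0.26, adjusted p 1.14e-73). Hsp90b1 stood at 4582.4, 6728.2 and 4871.5 against 452.5, 552.3 and 395.5 (3.52, SE 0.21, adjusted p 1.034e-60). Hspa5 differed less, with 2310.9, 1707.5 and 2119.5 against 420.1, 537.3 and 407.0 (2.17, SE 0.21, adjusted p 8.56e-23). For all 3 the plasma libraries did not overlap the other cells. The lectin Calr (1.36, SE 0.22) and the lectin-bound isomerase Pdia3 (0.58, SE 0.23, adjusted p 0.0396 in edgeR) had the lowest called folds of the group. In share of member UMIs, Hsp90b1 made up 22.1% to 33.7% in the plasma libraries, 14.9% to 21.2% in those of fibroblasts and 6.12% to 10.4% in those of neutrophils.

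Xbp1 itself, chr11:5520659-5525893 on the plus strand, stood at 1720.7, 1609.8 and 1726.9 scaled CPM in plasma cells against 100.9, 103.9 and 87.7 in the other cells. The 3 plasma values lay close together and apart from the rest (log2 fold 4.12, SE 0.23, adjusted p 4.179e-66). All 4 genes of the sensor group were called higher, with a median of 2.51. Of the ATF4 and CHOP arm 3 of 5 were called. Atf4 had a log2 fold of 1.04 (SE 0.25, adjusted p 0.000195 in edgeR) and Ddit3 one of 1.19 (SE 0.34, adjusted p 0.0028). In CPM of all UMIs, not scaled, Ddit3 averaged 25.1 ± 4.32 (n = 3) in plasma cells, below the 40.2 ± 19.8 (n = 6) of fibroblasts. Chac1, an enzyme that breaks down glutathione, had a log2 fold of 3.06 (SE 0.65) from levels of 4.25 to 11.9 scaled CPM.

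B cells are the precursors of plasma cells and were the nearest comparison. In the 3 libraries that held both, 27 of 27 members tested were called higher in plasma cells, with a median log2 fold of 3.16, against 23.3% of all 3548 genes called higher and a median of -0.09. Xbp1 stood at 1874.5, 1795.4 and 1697.2 scaled CPM in plasma cells and at 76.5, 19.4 and 18.4 in B cells (5.84, SE 0.53, adjusted p 0.00219 in edgeR). The largest folds were those of Derl3 (7.20, SE 0.41), Xbp1, Creld2 (5.60), Edem1 (4.85), Sel1l (4.76) and Sdf2l1 (4.73, SE 0.70). Asns, Chac1, Ern1 and Trib3 were too low to be tested.

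Other genes of the secretory path were also called in plasma cells. Of 26 genes of the translocon, signal peptidase and glycosylation 23 were called higher and 0 lower (median log2 fold 1.52), led by Sec11c (4.69, SE 0.23), a catalytic subunit of signal peptidase, with Ssr4 (3.58) and Spcs3 (3.84). Of 19 other degradation genes 13 were called higher and 0 lower (1.37), among them Edem2 (4.52, SE 0.27). Of 18 ER to Golgi genes 12 were called higher and 0 lower (0.99), with the cargo receptor Lman1 at 2.76 (SE 0.24). Of 22 other folding genes 11 were called higher and 3 lower (0.58), with Txndc5 at 5.15 (SE 0.25). Of 16 cytosolic heat shock and dissociation genes 2 were called higher and 7 lower (-0.51). Of 32 other ATF4 targets 9 were called higher and 6 lower (0.35).

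**Figure D3:**
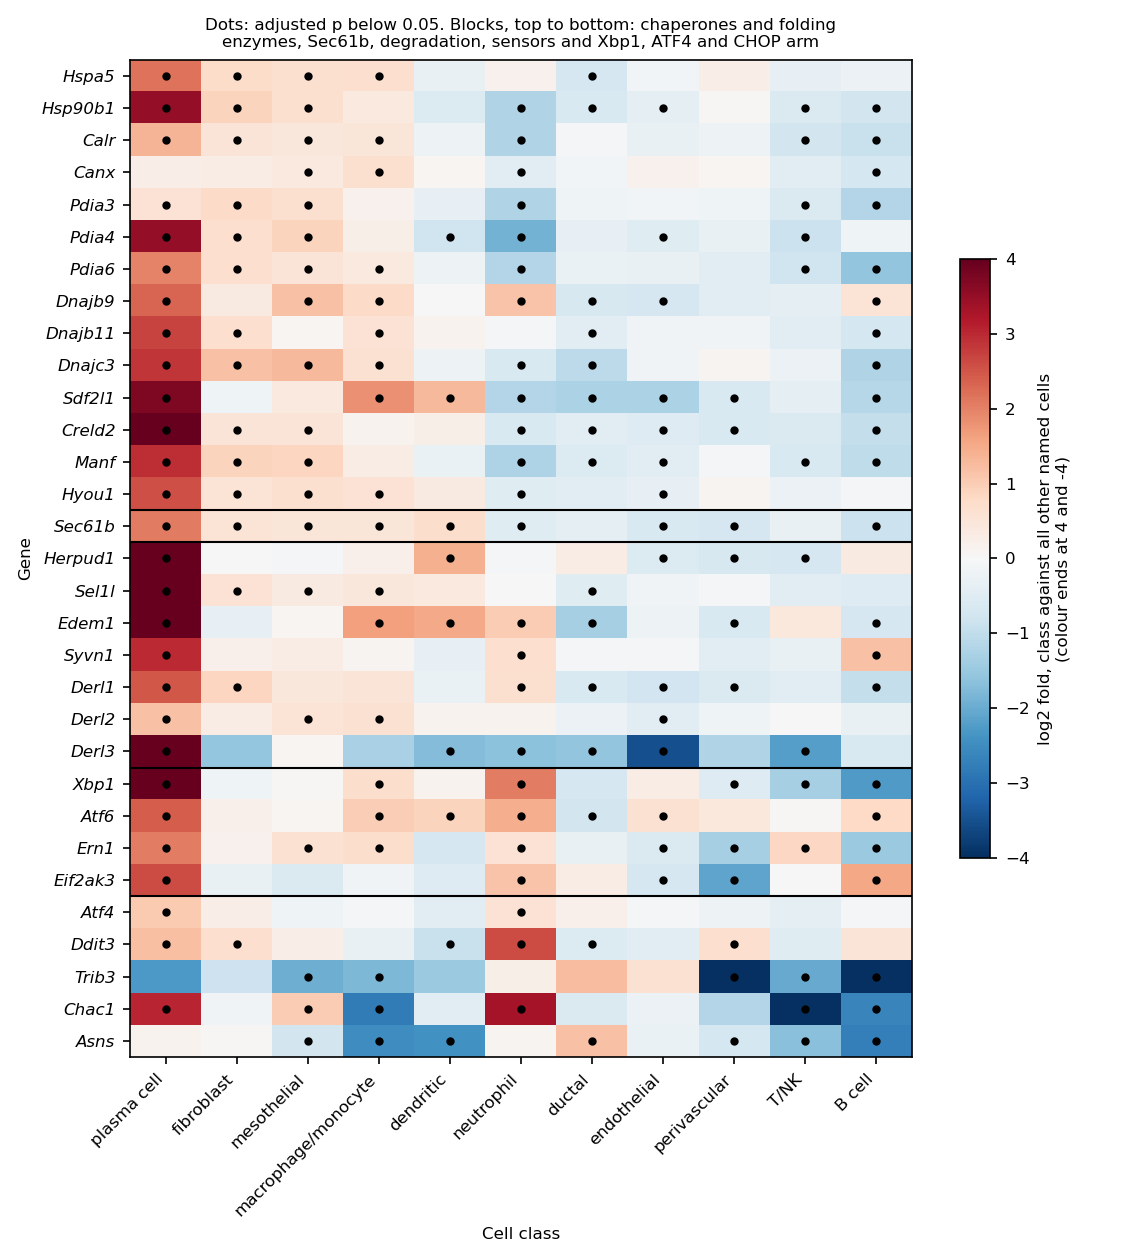
Log2 fold of each of the 31 genes (rows, grouped by role) in each class against all other named cells of the same libraries (columns), with the colour running from -4 to 4 and dots where the adjusted p is below 0.05. The plasma column is high nearly throughout, and the neutrophil column is low for folding enzymes and high for Xbp1, Atf6, Ddit3 and Chac1.

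Fibroblasts were called higher for 15 of the 31 members and lower for 0, with a median log2 fold of 0.35 against -0.12 for all genes. In all, 18.1% of genes were called higher and 22.2% lower, so the members' share of higher calls was above the background. The chaperones carried most of the calls, with 11 of 14 higher and a median of 0.67. Dnajc3, a co-chaperone of BiP, had 302.3, 349.8 and 291.3 scaled CPM in fibroblasts of vehicle mice and 326.5, 360.3 and 172.3 after IPI-926, against 82.6 to 176.1 in the other cells (1.16, SE 0.22, adjusted p 0.0032 in edgeR). IPI-926 replicate 3 was the low library of the 6. Hsp90b1 stood at 1014.3 to 1742.9 scaled CPM in fibroblasts (0.90, SE 0.13, adjusted p 0.000843). Manf (0.88), Derl1 (0.85), Pdia3 (0.76) and Hspa5 (0.74) followed, and Xbp1 was not called (adjusted p 0.509).

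Against ductal cells, which hold the tumour epithelium, fibroblasts were called higher for 16 of 31 members and lower for 1, Eif2ak3 (-0.52), which lost its call when any of the libraries but IPI-926 replicate 3 was left out, while 3 members were lower without IPI-926 replicate 3. The background was 20.9% higher and 22.9% lower, and the members' median was 0.57 against -0.12. The largest folds were those of Dnajc3 (1.55, SE 0.34), Hsp90b1 (1.01, SE 0.13), Derl1 (0.97), Hspa5 (0.96) and Manf (0.96). Ddit3 was also called higher, at 28.4, 22.9 and 34.3 scaled CPM in vehicle and 32.6, 39.4 and 79.9 in IPI-926 fibroblasts, and IPI-926 replicate 3, whose fibroblasts lay mostly in clusters of their own, was far above the others. Against endothelial cells 21 of 29 members tested were called higher and 1, Trib3 (-1.47), lower (Trib3 lost its call without any of the vehicle libraries or IPI-926 replicate 2), with 27% of all genes called higher and 25% lower and medians of 0.75 and -0.00. Derl1 led with 1.43, followed by Dnajc3 (1.17), Manf (1.17), Sdf2l1 (1.13) and Hsp90b1 (1.09). Of 12 genes of proteins that fibroblasts secrete, such as collagen chains, 12 were called higher than in other cells with a median of 4.29. Beside it 18 of 26 translocon and glycosylation genes were called higher and 1 lower (0.61), and 13 of 18 ER to Golgi genes higher and 0 lower (0.99). Among other folding genes, 10 of 22 were called higher and 0 lower, with Fkbp14 (3.97), Pdia5 (2.28) and Calu (2.07) at the front.

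Mesothelial cells, the lining of the abdominal cavity, were called higher for 17 members and lower for 2, with a median of 0.46 against -0.07 and a background of 18.2% higher and 20.8% lower. Dnajc3 (1.30), Dnajb9 (1.16), Chac1 (1.01), Pdia4 (0.90), Manf (0.87) and Hsp90b1 (0.65) had the largest folds, and Trib3 (-1.94) and Asns (-0.73) were lower. The count of higher members was 11 without vehicle replicate 1, vehicle replicate 2 or IPI-926 replicate 2. Dnajb9, a BiP co-chaperone, stood at 112.1 to 160.4 scaled CPM in mesothelial cells. Heat shock and dissociation genes took their largest mean share in this class, 1.12% of UMIs, against 0.361% in plasma cells, and their part in these values was not tested. Fibroblast markers summed to 11705.5 to 26256.5 CPM in mesothelial cells, against 19868.6 to 45175.5 in fibroblasts. Mesothelial markers summed to 968.0 to 5375.8 in mesothelial cells and to 99.0 to 161.9 in fibroblasts. Cluster 12, the main mesothelial cluster, had 9 markers of each of these classes detected. The part of this likeness was not tested.

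Macrophages and monocytes divided the module. They were called higher for 16 members and lower for 3, with a background of 27.2% and 30.7% and a median of 0.46 against -0.03. Sdf2l1, a partner of BiP and its co-chaperones, stood at 132.0, 89.2 and 207.1 scaled CPM in vehicle mice and at 81.3, 142.6 and 183.1 after IPI-926, against 23.4 to 73.6 in the other cells (1.82, SE 0.19, adjusted p 6.163e-05). Every macrophage value lay above every value of the other cells. Edem1 (1.65, SE 0.11), Atf6 (0.98), Dnajb9 (0.78), Xbp1 (0.71) and Ern1 (0.70) were the next, and 3 of the 4 sensor genes were called. The ATF4 and CHOP arm went the other way, with 3 of 5 called lower and a median of -1.80. Asns, which makes asparagine, stood at 3.57 to 10.5 scaled CPM in macrophages and at 22.2 to 45.3 in the other cells (-2.48). Chac1 (-2.81) and Trib3 (-1.80) were lower as well, while Atf4 (adjusted p 0.678) and Ddit3 (adjusted p 0.231) were not called.

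Neutrophils differed from both patterns. They were called higher for 11 members and lower for 13, in a class where 26% of all genes were called higher and 40.5% lower and the median of all genes was -0.39. The median of the members was 0.01. The shift of all genes depended on scaling, at -0.61 with DESeq2's size factors, where the members' median was -0.20, so its sign depended on scaling too. Leaving out the clusters of few UMIs per cell, an alternative chosen after seeing the data, took cluster 24 out of the class. That cluster held 760 of the 781 neutrophils of vehicle replicate 3, whose others lay in cluster 16 (16 cells) and cluster 3 (5 cells). All genes then had a median of -1.02, and 4 members were called higher and 16 lower. Folds below are as fitted, with the shift of all genes not taken off.

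On the high side stood 3 of the 5 genes of the ATF4 and CHOP arm and all 4 genes of the sensor group. Ddit3, chr10:127290774-127296288 on the plus strand, had 81.2, 96.6 and 61.5 scaled CPM in neutrophils of vehicle mice and 186.7, 116.9 and 328.2 after IPI-926, against 12.2 to 57.0 in the other cells (log2 fold 2.62, SE 0.21, adjusted p 2.321e-09). Every neutrophil value lay above every value of the other cells. Chac1 stood at 5.90, 12.8 and 7.81 and at 12.5, 7.83 and 43.8 against 0.592 to 3.48 (3.34, SE 0.30, adjusted p 1.378e-08), again with no overlap. Xbp1 stood at 311.4, 699.2 and 640.2 and at 876.1, 797.7 and 103.9 against 79.1 to 160.8 (2.04, SE 0.29, adjusted p 1.886e-05). IPI-926 replicate 3, whose neutrophils lay mostly in another cluster, was the low library and fell within the range of the other cells. Within cluster 3, Xbp1 stood at 72.1 CPM in vehicle replicate 1, 192.2 in IPI-926 replicate 1 and 99.4 in IPI-926 replicate 3, and within cluster 16 at 349.3 in vehicle replicate 1 and 721.5 in IPI-926 replicate 1. Atf6 (1.45), Eif2ak3 (1.15) and Dnajb9 (1.15, SE 0.22) completed the highest folds. Without the clusters of few UMIs Chac1 (2.85), Ddit3 (2.12), Xbp1 (1.46) and Atf6 (0.88) were still called, while Eif2ak3 (0.54, adjusted p 0.0683) and Dnajb9 (0.54, adjusted p 0.0636) were not.

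On the low side stood the folding enzymes, with 11 of 14 chaperones called lower, 1 higher and a median of -0.89. Pdia4 stood at 10.9 to 38.1 scaled CPM against 79.1 to 117.6 (-1.90, SE 0.21), and Manf was lower as well (-1.24). Hsp90b1 stood at 207.9 to 366.0 against 497.9 to 1115.5 (-1.21, SE 0.21, adjusted p 5.758e-05), with no overlap. Hspa5 did not follow them, at 363.0 to 1188.8 scaled CPM and a log2 fold of 0.18 (SE 0.20, adjusted p 0.458 in edgeR). Derl3 (-1.65) rested on levels of at most 1.48 scaled CPM. In the member UMIs of neutrophils Xbp1 took 8.82% to 19.1% in 5 libraries and 3.06% in IPI-926 replicate 3, against 8.07% to 8.31% in plasma cells and 17.2% and 10.9% in the acinar libraries. The summed share of the sensor group was 0.0569% of UMIs in neutrophils, 0.125% in plasma cells and 0.0521% in acinar cells. Of 26 translocon and glycosylation genes 0 were called higher and 17 lower (-0.61), and of 32 other ATF4 targets 7 were called higher and 20 lower (-1.0), so that list did not share the sign of the ATF4 and CHOP arm. The 3 named from it were Cebpb (3.73), Ppp1r15a (3.37), a phosphatase subunit that ends the PERK signal, and Sesn2 (3.16), all higher.

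Ductal cells were called higher for 1 member, Asns, and lower for 14, with a median of -0.44 against 0.02 and a background of 20.7% higher and 26.2% lower. Asns stood at 49.6, 45.9 and 31.02 scaled CPM in vehicle and at 72.8, 27.6 and 30.6 after IPI-926, against 11.8 to 40.0 in the other cells (1.17, SE 0.36, adjusted p 0.0316 in edgeR), so the ranges overlapped. Of the degradation genes 4 of 7 were called lower, with Edem1 at -1.34, and of the chaperones 8 of 14, with Sdf2l1 at -1.27. Derl3 (-1.57) was at 0.555 to 1.48 scaled CPM in ductal cells. Asns lost its call without vehicle replicate 1 or 2 or IPI-926 replicate 1 or 2. The count of lower members was 8 without vehicle replicate 1 or 2, 9 without vehicle replicate 3 and 7 without IPI-926 replicate 2. Ductal cells of the 6 mice lay mostly in different clusters, and the largest cluster of a library held 37.5% to 95.8% of them.

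Acinar cells, the enzyme-secreting cells of the healthy pancreas, were compared with ductal cells in 2 vehicle libraries, where 2 members were called higher and 0 lower (background 1.38% and 1.64%, medians 0.23 and -0.07). Xbp1 stood at 720.0 and 418.2 scaled CPM in acinar cells and at 58.1 and 102.6 in ductal cells (2.81, SE 0.42, adjusted p 6.786e-09). Asns stood at 190.6 and 49.4 against 37.6 and 24.96 (1.59, SE 0.45, adjusted p 0.0186). Derl3 had 63.5 and 0.824 scaled CPM in the 2 acinar libraries, the first of them with 20 cells, and was not called (3.25, SE 3.92). The chaperones were not called, with a median of -0.17.

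Dendritic cells were called higher for 5 members and lower for 4, with a background of 13.6% and 27.5%. Edem1 (1.53), Herpud1 (1.43), Sdf2l1 (1.29), Atf6 (0.90) and Sec61b (0.69) were higher, and Asns (-2.43), Derl3 (-1.72) and Ddit3 (-0.88) were the lowest. The 5 higher became 2 without vehicle replicate 2, IPI-926 replicate 1 or IPI-926 replicate 2, 3 without vehicle replicate 1 and 8 without IPI-926 replicate 3, and the 4 lower became 2 without vehicle replicate 1 and 1 without IPI-926 replicate 2. B cells were called higher for 4 members, Eif2ak3 (1.55), Syvn1 (1.16), Atf6 (0.81) and Dnajb9 (0.56), and lower for 18, with a background of 15% and 37.1%. Trib3 had UMIs in 1 of the 6 B cell libraries and Asns was lower (-2.73). Endothelial cells were called higher for Atf6 (0.61) and lower for 14 members, among them Sdf2l1 (-1.26), Derl1 (-0.76) and Derl3, which had UMIs in 2 of 6 libraries, with a background of 19.2% and 31.2%. Perivascular cells were called higher for Ddit3 (0.67) and lower for 11, including Eif2ak3 (-2.11) and Ern1 (-1.32), with 12.4% and 24%. Those 11 became 5 without IPI-926 replicate 2, and no member was higher without vehicle replicate 1 or 2. T and NK cells were called higher for Ern1 (0.83) and lower for 12, with 18.5% and 32.1%. Ern1 lost its call without vehicle replicate 2 or 3 or IPI-926 replicate 1 or 2. Their Chac1 had UMIs in 1 of 6 libraries, and Xbp1 was called lower, with a log2 fold of -1.34.

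Levels of the genes at the centre of the module, in CPM of all UMIs as mean ± SD over libraries, showed how differently their ranges ran. Hspa5 ran from 272.8 ± 101.9 in acinar cells and 522.4 ± 139.1 in ductal cells, through 537.5 ± 183.9 in dendritic, 543.3 ± 129.8 in T and NK, 549.0 ± 120.4 in B cells, 568.5 ± 181.1 in neutrophils, 721.5 ± 119.9 in endothelial, 812.3 ± 113.5 in macrophages, 939.2 ± 263.5 in perivascular, 997.8 ± 218.8 in mesothelial cells and 1055.1 ± 217.5 in fibroblasts, to 1329.8 ± 134.5 in plasma cells. Acinar cells lay below all ductal libraries, and every other pair of neighbours in that order overlapped, plasma cells and fibroblasts included. Hsp90b1 ran from 237.7 ± 44.5 in neutrophils to 1244.0 ± 188.5 in fibroblasts and 3555.4 ± 993.9 in plasma cells, where the plasma libraries did not overlap the fibroblasts. Between them lay acinar (310.1), B (457.1), dendritic (498.4), T and NK (532.3), ductal (591.6), endothelial (679.8), macrophage (782.4), perivascular (897.8) and mesothelial cells (1117.4). Atf4, which is controlled largely at translation, had the narrowest range, from 101.1 ± 20.4 in dendritic cells to 175.1 ± 10.6 in fibroblasts, with 171.9 in endothelial cells, 166.4 in neutrophils, 166.3 in acinar, 164.3 in ductal, 152.4 in perivascular, 142.2 in B, 133.1 in plasma, 132.3 in mesothelial cells, 121.0 in macrophages and 118.8 in T and NK cells.

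Xbp1 had 1100.2 ± 20.9 CPM in plasma cells, 471.3 ± 234.4 in neutrophils (92.6 to 657.7), 448.1 ± 17.6 in acinar cells, 209.7 in endothelial cells and 187.4 in macrophages. Mesothelial cells (152.9), dendritic cells (149.4), fibroblasts (148.5), ductal cells (139.6) and perivascular cells (119.3) lay together, and T and NK cells (63.8) and B cells (33.8) were lowest. Ddit3 had 122.0 ± 87.6 in neutrophils (53.1 to 292.5), 46.9 in perivascular cells, 44.8 in B cells, 40.2 in fibroblasts, 30.1 in mesothelial cells, 25.1 in plasma cells, 22.3 in endothelial cells, 21.5 in ductal cells, 20.9 in T and NK cells, 20.3 in macrophages, 14.7 in dendritic cells and 13.2 in acinar cells. Derl3 was the member most restricted in level, with 212.3 ± 27.0 in plasma cells, 38.4 and 0.907 in the 2 acinar libraries, 2.17 in mesothelial cells, 1.90 in B cells, and at most 1.20 in each other class, the lowest being 0.196 in endothelial cells.

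Sdf2l1 had 231.3 ± 49.5 CPM in plasma cells, 121.9 ± 43.0 in macrophages and 111.0 ± 54.0 in dendritic cells, then 69.6 in mesothelial cells, 51.8 in fibroblasts, 49.6 in T and NK cells, 39.0 in perivascular, 33.8 in ductal, 29.3 in B, 27.1 in endothelial and 20.6 in acinar cells and 15.6 in neutrophils. Herpud1 had 418.0 ± 128.2 in plasma cells and 171.4 ± 79.4 in dendritic cells, and between 44.0 in T and NK cells and 90.1 in ductal cells elsewhere, with 85.5 in B cells, 77.9 in fibroblasts, 68.6 in mesothelial cells, 66.4 in acinar cells, 63.5 in macrophages, 57.6 in neutrophils, 55.8 in endothelial cells and 50.7 in perivascular cells. Creld2 had 437.6 ± 113.3 in plasma cells and no more than 58.1 elsewhere (mesothelial), with 54.5 in fibroblasts, 39.2 in dendritic cells, 36.9 in macrophages, 34.3 in ductal, 33.5 in endothelial, 30.5 in perivascular, 28.9 in T and NK and 19.6 in B cells, 19.1 in neutrophils and 17.6 in acinar cells. These 3 had their highest means in plasma cells, and the class that followed differed for each. The plasma libraries overlapped that class for Herpud1 and not for Sdf2l1 or Creld2.

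The calls can also be counted by promoter element. The 9 members with an ERSE were called higher 8 times and lower 0 times in plasma cells (median 2.86), 6 and 0 times in fibroblasts (0.52), 7 and 0 in mesothelial cells and 5 and 0 in macrophages. Over all genes 10.6%, 18.1%, 18.2% and 27.2% were called higher in those classes, and of the 31 members 28, 15, 17 and 16. In neutrophils 1 was called higher and 7 lower (-0.61), and in ductal cells 0 and 5. The counts were 1 and 6 in B cells, 0 and 4 in T and NK cells and 0 and 3 in endothelial cells. Dendritic and perivascular cells had 0 and 1 each. Of all genes 40.5% were called lower in neutrophils, 26.2% in ductal, 37.1% in B, 32.1% in T and NK and 31.2% in endothelial cells. The 4 members with the C/EBP-ATF core were called lower 4 of 4 times in T and NK cells (-1.85) and 3 of 4 in macrophages (-2.14), and in plasma cells 2 were higher. They were also called lower 3 of 4 times in B cells and in perivascular cells. Of all genes 30.7% were called lower in macrophages and 24% in perivascular cells. These counts describe the same contrasts and are no test of the element.

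IPI-926 against vehicle gave no call among the members. In each of the 10 classes with at least 2 libraries per group, and in all cells summed, 0 members passed an adjusted p of 0.05 in edgeR. Over all genes the share called was 0% in dendritic cells, ductal cells, endothelial cells, fibroblasts, macrophages and mesothelial cells and in all cells summed, 0.012% in neutrophils, 0.0145% in perivascular cells, 0.027% in T and NK cells and 0.0345% in B cells. At an unadjusted p below 0.05 there were 2 members in endothelial cells, mesothelial cells and neutrophils each, 1 in ductal cells and 0 in the others. Over all genes tested it held for 346 of 10450 in endothelial cells and 442 of 11662 in mesothelial cells. In neutrophils it held for 349 of 8350 and in ductal cells for 509 of 15300. DESeq2 and limma-voom also called 0 members. The summed share overlapped between the groups in all of these classes, with log2 ratios from -0.35 in dendritic cells to 0.14 in endothelial cells. In fibroblasts it was 0.654%, 0.845% and 0.653% in vehicle mice and 0.775%, 0.770% and 0.737% after IPI-926. In ductal cells it was 0.402%, 0.491% and 0.404% against 0.313%, 0.515% and 0.554%. With 3 mice a group the median SE of a member's log2 fold was 0.27 in fibroblasts and 0.46 in dendritic cells, and Gli1 was not called in fibroblasts at a log2 difference of -4.99. The 0 calls therefore do not show that the members kept their level.

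**Figure D4:**
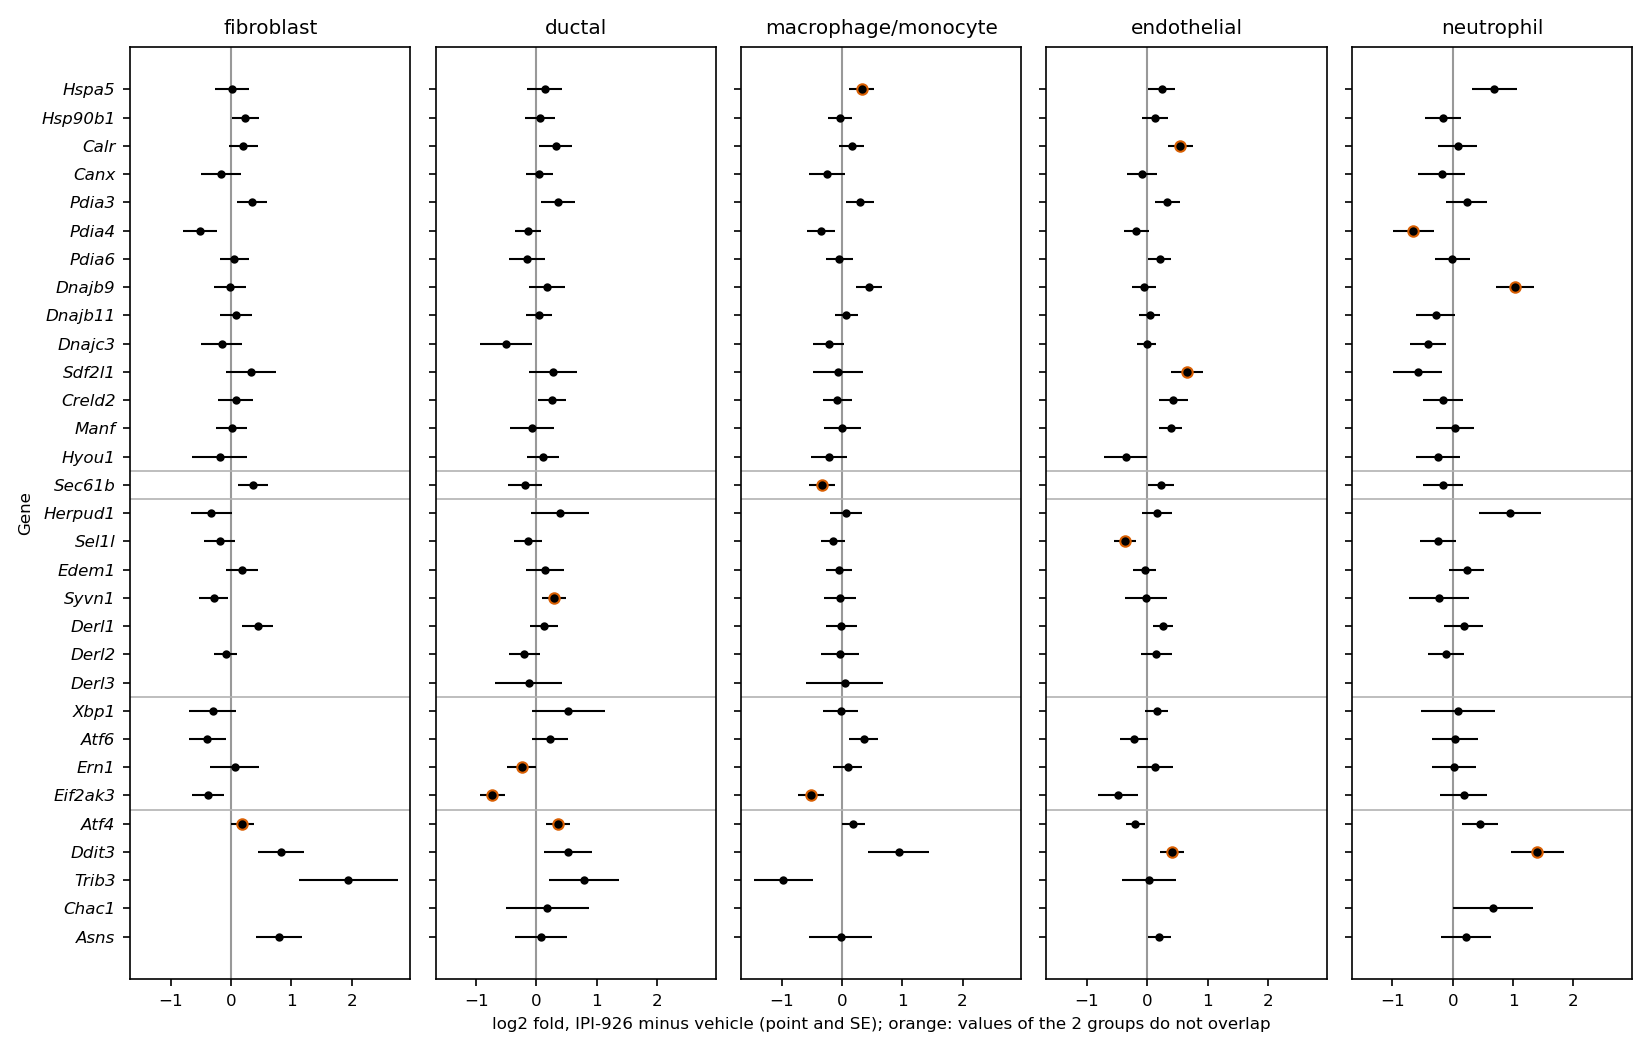
Log2 fold of each member, IPI-926 minus vehicle, with its SE (x axis), for the 31 genes (y axis) in fibroblasts, ductal cells, macrophages and monocytes, endothelial cells and neutrophils; orange marks members whose 3 vehicle and 3 IPI-926 libraries do not overlap. Most folds lie within 1 of 0, and those of Trib3 in fibroblasts (1.94) and Ddit3 in neutrophils (1.40) stand out with wide errors.

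In fibroblasts the members with the smallest p in each direction were Trib3, Ddit3, Pdia4 and Eif2ak3. Trib3 stood at 2.095, 1.342 and 0.473 scaled CPM in vehicle mice and at 4.53, 0.732 and 7.96 after IPI-926 (log2 fold 1.94, SE 0.82, adjusted p 0.919 for this and each of the other 3). Ddit3 stood at 29.3, 23.5 and 35.2 and at 33.5, 41.0 and 80.6 (0.83, SE 0.38). Both overlapped, and the Ddit3 fold was 0.35 without IPI-926 replicate 3. Fibroblasts of that library lay mostly in clusters 30 and 34, which no other library shared with 20 or more cells, while 99.47% or more of those of each other library lay in cluster 14. Within cluster 14 Ddit3 had 29.7, 23.0 and 36.7 CPM in vehicle mice and 32.2, 41.2 and 35.7 after IPI-926, the last from 64 cells, and in clusters 30 and 34 it had 71.1 and 80.0 CPM. Markers of neutrophils, the class with the highest mean Ddit3, summed to 170.8, 256.6 and 144.6 CPM in fibroblasts of vehicle mice. After IPI-926 they summed to 1984.2, 308.7 and 29.0 CPM, and their part in the Ddit3 values was not tested. Pdia4 stood at 152.9, 244.7 and 168.4 and at 138.6, 152.9 and 104.1 (-0.52, SE 0.28), and Eif2ak3 had a log2 fold of -0.38 (SE 0.26). In fibroblasts 1 of 29 members tested had groups that did not overlap, against 9.12% of all genes.

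In ductal cells 4 of 31 members had groups that did not overlap, Eif2ak3, Atf4, Syvn1 and Ern1, against 7.55% of all genes. Eif2ak3, the PERK kinase, stood at 21.6, 27.0 and 23.7 scaled CPM in vehicle mice and at 15.4, 13.0 and 15.2 after IPI-926 (-0.73, SE 0.21, adjusted p 0.9998 in edgeR). All 3 IPI-926 values were below all 3 vehicle values. Atf4 stood at 154.0, 130.3 and 148.6 and at 192.6, 169.2 and 193.4 (0.36, SE 0.20), with the groups apart in the other direction. Within cluster 8 Atf4 overlapped, at 187.0, 211.9 and 172.0 CPM in vehicle mice and 211.5 and 205.7 in IPI-926 replicates 1 and 2. In cluster 7 it had 145.9, 118.2 and 125.1 against 182.2 and 170.7 (IPI-926 replicates 2 and 3). In cluster 9 replicates 1 and 2 had 158.4 and 132.8 in vehicle and 169.8 and 160.9 after IPI-926. In clusters 7 and 9 the groups were apart. Ductal cells of the mice lay mostly in different clusters, whose part was not tested. Syvn1, the ubiquitin ligase of the degradation complex, had a log2 fold of 0.29 (SE 0.20) and Dnajc3 one of -0.50 (SE 0.43).

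In macrophages and monocytes 3 of 30 members did not overlap, Eif2ak3, Hspa5 and Sec61b, against 5.78% of all genes. Eif2ak3 was again low after IPI-926, at 11.5, 17.2 and 16.2 scaled CPM in vehicle mice and 9.28, 10.8 and 11.3 after the drug (-0.51, SE 0.22, adjusted p 0.9999 in edgeR). Ddit3 stood at 11.5, 10.4 and 20.5 and at 15.2, 18.0 and 47.4, with IPI-926 replicate 3 far above the others (0.94, SE 0.50), and the fold was 0.24 without that library. Macrophages of the mice also lay in different clusters: clusters 0 and 2 held most of them in 4 libraries, cluster 27 in vehicle replicate 3, and clusters 25 and 4 in IPI-926 replicate 3. In cluster 2, the one shared by all 6, Ddit3 had 11.01, 12.3 and 23.7 CPM in vehicle mice and 23.1, 16.4 and 83.1 after IPI-926, the last from 22 cells. Trib3 (-0.97, SE 0.49) and Dnajb9 (0.45, SE 0.22) were the other 2 named by p.

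In endothelial cells 4 of 29 did not overlap, Calr, Sdf2l1, Sel1l and Ddit3, against 9.77% of all genes. Calr stood at 439.9, 567.9 and 380.6 scaled CPM in vehicle mice and at 739.3, 584.0 and 714.8 after IPI-926 (0.55, SE 0.20, adjusted p 0.988 in edgeR). Sdf2l1 stood at 18.8, 24.95 and 20.2 and at 26.9, 27.9 and 46.0 (0.66, SE 0.26). In both genes the IPI-926 values were all above the vehicle values, with the smallest gap between vehicle replicate 2 and its nearest IPI-926 library. Sel1l (-0.37, SE 0.18) and Eif2ak3 (-0.48, SE 0.33) were the members with the smallest p in the other direction.

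Neutrophils were named for this contrast after their values were seen. There 3 of 29 members did not overlap, Ddit3, Dnajb9 and Pdia4, against 11.6% of all genes. Ddit3 stood at 73.1, 78.3 and 51.7 scaled CPM in vehicle mice and at 149.1, 95.8 and 314.6 after IPI-926 (1.40, SE 0.44, adjusted p 0.96 in edgeR), and the fold was 0.88 without IPI-926 replicate 3. Dnajb9 stood at 66.4, 77.2 and 65.7 and at 153.9, 96.2 and 188.8 (1.03, SE 0.32, adjusted p 0.96). Beside these values, heat shock and dissociation genes took 0.676%, 0.920% and 0.994% of neutrophil UMIs in vehicle mice and 0.904%, 1.03% and 1.48% after IPI-926, and 14 of 16 of them had positive folds (median 0.63). None of the 17 fibroblast and 15 ductal markers was at 0 in neutrophils. Fibroblast markers summed to 578.0, 510.0 and 109.6 CPM in vehicle neutrophils and to 213.8, 198.1 and 2398.3 after IPI-926, so IPI-926 replicate 3, the library with the highest Ddit3 and Dnajb9, was far above the others. Ductal markers summed to 9523.1, 1589.6 and 4982.3 and to 2861.9, 2853.9 and 1696.4. The part of these in the result was not tested, and the clusters that hold the neutrophils of vehicle replicate 3 and IPI-926 replicate 3 differ from those of the other mice. Within cluster 16, which 5 libraries shared, Ddit3 stood at 94.9 and 91.0 CPM in vehicle replicates 1 and 2 and at 156.0, 94.4 and 259.1 in IPI-926 replicates 1, 2 and 3, the last from 28 cells.

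In the other classes few members had groups that did not overlap. In mesothelial cells 3 of 29 did, Calr, Derl1 and Derl2, against 9.62% of all genes. Derl2 (0.53) and Derl1 (0.44), membrane proteins of the extraction channel, were the 2 members there with an unadjusted p below 0.05. Over all 11662 genes 442 had such a p. In dendritic cells, where 2 vehicle and 3 IPI-926 libraries were compared, 3 of 26 did, Calr, Canx and Eif2ak3, against 14.5%, all lower after IPI-926. In perivascular cells 1 of 25 did, Dnajb9 (0.58), against 7.14%, and in T and NK cells 1 of 27, Atf4 (0.26), against 5.86%. In B cells 0 of 17 did, against 6.45%. Of the T and NK cells of IPI-926 replicate 3, 98.53% lay in cluster 28, and those of each other library mostly in cluster 18. Within cluster 18 Atf4 had 114.7, 112.5 and 104.2 CPM in vehicle mice and 124.6, 118.9 and 84.5 after IPI-926, the last from 26 cells. Of the mesothelial cells of IPI-926 replicate 3, 78.54% lay in cluster 35, found in that library only. Mesothelial cells of the other libraries lay in cluster 12. The part of these differences was not tested.

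The sign of a member across classes is a description, since the classes share the 6 mice. Ddit3 was positive in 9 of 9 classes tested (median 0.52) and in 7 of 9 without IPI-926 replicate 3 (0.31), the library with the highest Ddit3 in 8 of the 9 classes that have 6 libraries. Pdia4 was negative in 10 of 10 (-0.36) and in 9 of 10 without vehicle replicate 2 (-0.16), the library with its highest value in 7 of 9. Dnajc3 was negative in 10 of 10 (-0.24) and in 7 of 10 without vehicle replicate 2. Eif2ak3 was negative in 7 of 9 (-0.38), and Hyou1 (-0.22) and Sel1l (-0.19) in 8 of 9 each. Without vehicle replicate 2 Hyou1 was positive in fibroblasts (0.4), T and NK (0.39), ductal (0.29) and mesothelial cells (0.26). It was then also positive in endothelial cells (0.2), macrophages (0.17) and perivascular cells (0.08), and negative in dendritic cells (-0.18) and neutrophils (-0.01). The sign of Hyou1 therefore rested on that mouse. Pdia3 was positive in 9 of 10 (0.26), with its highest value in IPI-926 replicate 3 in 7 of 9 classes. Dnajb9 (0.21) and Hspa5 (0.08) were positive in 8 of 10 each. Without vehicle replicate 3 Hspa5 was negative in perivascular (-0.29), T and NK (-0.21), mesothelial (-0.13) and ductal cells (-0.01) and fibroblasts (-0.13). It stayed positive in neutrophils (0.47), B cells (0.32), macrophages (0.22) and endothelial cells (0.08). Canx was negative in 9 of 10 (-0.18) and positive in 8 of 10 (0.06) without vehicle replicate 2, so its sign rested on that mouse. Vehicle replicate 2 also had the highest Hyou1 in 8 of 9 classes and the highest Sel1l in 7 of 9, and vehicle replicate 3 the lowest Hspa5 and Calr in 8 of 9 each. These differences between mice of 1 group ran through most classes at once.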

How the data were processed

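Per the file headers, the authors deposited unnormalized 10x count matrices, whose entries are UMI counts of 1 gene in 1 barcode (Single Cell 3' v3 per the labels). The matrix headers name cellranger 6.1.2 and the submitters' processing notes Cell Ranger 2.1.1 and mm10; the annotation is not given in the sources used here. Positions are from GENCODE vM21 on GRCm38, which holds all 31 members.

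Barcodes needed 500 UMIs, 300 genes and no more than 20% of UMIs from mitochondrial genes, which 54911 of 62905 met (median UMIs 2775 to 8057 per library), and 5114 cells scored as doublets against simulated doublets were removed. Cells were clustered (scanpy 1.11.5, Leiden at resolution 1) on 2000 variable genes without the members. A cluster took a class when at least 3 of its markers were detected; 8 of 38 clusters stayed unnamed. Rebuilt names can differ from those of the study.

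UMIs of a class were added up within each library (at least 20 cells) and tested with edgeR 4.0.16 (R 4.3.3; TMM, filterByExpr, robust quasi-likelihood test), with the library as a block between classes. Benjamini-Hochberg adjustment ran over all genes tested, at a threshold of 0.05, and the SE is the log2 fold over the root of F. The scripts were tested on simulated data. At a log2 fold of 1 between treatments, 0% of changed genes were recovered in fibroblasts and in ductal cells and 4% in macrophages. At a log2 fold of 2 these shares were 30.6%, 28.6% and 70%. For plasma against B cells they were 30.4% at 1 and 98% at 2. The members and lists were chosen with earlier results of these data known. The text names members past the threshold (up to 6 higher and 3 lower per class contrast), otherwise the 2 with the smallest p in each direction in 4 classes, 9 members in every class, up to 3 genes per other list, and the 10 genes most like the summed share, of which 1 is not reported here, nor is 1 allele of the genotype. Of the lists, Hm13, Mars1 and Amy2b were not matched. Replicate numbers follow the order of the records. The p-values rest on the spread between mice, in class contrasts that of the difference within a library. edgeR moderates the spread of each gene by that of all genes. In plasma and acinar cells, with the fewest libraries, this shared part weighs most, so very small p-values there do not reflect the gene's own libraries alone. Alternatives included DESeq2 1.42.0, limma-voom 3.58.1, other filters, cell minimums, clusterings and each library left out.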

Additional observations from a re-analysis of the deposited data

Results flagged for a closer look

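Calr, the lectin chaperone that also buffers calcium in the ER, had folds of opposite sign in different classes, with no overlap between the groups in any of the 3. In dendritic cells it had 577.1 and 579.7 scaled CPM in vehicle replicates 1 and 2 and 519.3, 572.4 and 207.3 after IPI-926 (log2 fold -0.40, SE 0.45), and IPI-926 replicate 3, with 32 dendritic cells, was far below the others. In mesothelial cells it had 756.7, 733.1 and 634.7 in vehicle mice and 898.9, 764.4 and 890.2 after IPI-926 (0.27, SE 0.17). Most mesothelial cells of IPI-926 replicate 3 lay in cluster 35, found in that library only. In endothelial cells the log2 fold was 0.55 (SE 0.20), from the values given above. None passed the adjusted threshold in edgeR (adjusted p 1.0, 0.999 and 0.988), and the difference between the classes was not tested.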

How the results depend on the processing

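IPI-926 against vehicle gave 0 called members under all 210 alternative fits, and the ratio of the summed share moved by less than the spread between mice under all 159. DESeq2 called more genes than edgeR over all genes (higher and lower: 18 and 59 in ductal cells, 4 and 25 in fibroblasts, 11 and 15 in mesothelial cells, 12 and 1 in neutrophils, 1 and 10 in perivascular cells, 6 and 3 in macrophages, 3 and 3 in endothelial cells, 0 and 5 in T and NK cells), and no member was among them. Eif2ak3 in endothelial cells turned to 0.30 with equal cells per library, and Chac1 in B cells against other cells to 0.42 with limma-voom. Of counts of members called between classes 468 stayed within 1.5 times and 70 did not. Of single members 1872 values kept their side of the threshold and direction, and 98 lost the call. No paired analysis was possible because the replicate numbers only follow the order of the records and tie no mouse of one group to a mouse of the other.

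Counts that moved were as follows, and the cause was not tested. In ductal cells the members called higher went from 1 to 2 with DESeq2, limma-voom, resolution 2, members allowed in clustering, and without clusters of 1 library or of few UMIs. Where members were allowed, 0 of them were among the variable genes, so that alternative does not test their part in the clustering. In T and NK cells they went from 1 to 0 with DESeq2, limma-voom, DESeq2 size factors, no filter and resolution 2, and those lower from 12 to 19 with DESeq2 and 21 with its size factors. In perivascular cells those higher went from 1 to 2 with DESeq2 and without acinar enzyme and immunoglobulin genes, 3 without clusters of 1 library and 0 with limma-voom, and those lower from 11 to 6 with limma-voom. In dendritic cells those higher went from 5 to 8 with at least 50 cells, and those lower from 4 to 2 with limma-voom. In neutrophils those higher went from 11 to 4 without clusters of few UMIs. In fibroblasts those lower went from 0 to 2 with DESeq2 and 1 without clusters of 1 library, and in plasma cells from 0 to 1 with at least 10 cells. Acinar against ductal cells went from 2 higher to 1 with DESeq2 or doublets kept, 5 at resolution 2 and 6 with at least 10 cells, where 1 was lower. Fibroblasts against ductal cells went from 1 lower to 2 with DESeq2, 3 without clusters of 1 library and 0 with no filter, doublets kept or a stricter cell filter.

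Leaving out 1 library at a time gave 2 to 8 higher and 1 to 4 lower in dendritic cells, 0 to 2 and 7 to 14 in ductal cells, 11 to 14 higher in mesothelial cells, 0 to 1 and 5 to 11 in perivascular cells and 0 to 1 higher in T and NK cells. It gave 0 to 1 lower in fibroblasts, 0 to 3 lower in fibroblasts against ductal cells and 0 to 1 lower against endothelial cells. With 3 mice a group, 3 plasma and 2 acinar libraries, and members at a few CPM in several classes (Derl3, Trib3, Chac1), depth and numbers limit what could be called.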

Other observations

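The 4793 cells of the 8 unnamed clusters enter no comparison above. The 31 genes took 0.351%, 0.547% and 0.381% of their UMIs in vehicle replicates 1 to 3 and 0.384%, 0.392% and 0.864% in IPI-926 replicates 1 to 3. IPI-926 replicate 3 was the high one, and the libraries held different clusters. Of its 95 unnamed cells 84 lay in cluster 21, whose share was also 0.730% in vehicle replicate 2 and 0.631% in IPI-926 replicate 1. Clusters 11 and 13 held most of the unnamed cells of vehicle replicate 1 and IPI-926 replicate 2, at 0.287% to 0.407%. By UMIs, cluster 19 was the largest in vehicle replicate 1, with 247 cells and 12906455 UMIs at 0.3565%, against 1312595 and 1486388 UMIs in clusters 11 and 13.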
